A study of Homo sapiens with 6 samples.

Results

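BNIP3, BNIP3L, FUNDC1, BCL2L13 and FKBP8, which encode mitophagy receptors, PINK1, which encodes the kinase that starts ubiquitin-dependent mitophagy, and PHB2, which encodes an inner membrane receptor, were taken from the gene count table as the rows bearing these symbols, 7 of 59653 rows. The genes were chosen by their role and with their values in this experiment already known, and BNIP3 and BNIP3L stand in the study's own heat map of the same comparison. Their levels and differences between the groups are therefore given as a description, with no test. The cells were SK-OV3, an established human ovarian adenocarcinoma line. The siPVT1 group received a pool of 4 siRNAs (Dharmacon) against PVT1, a long noncoding RNA, and the siControl group a non-targeting pool, each for 48 h and each with 3 RNA-seq libraries. Both groups are the same line without a stable genetic change, so that the comparison is of a transient knockdown with 1 pool of siRNAs, and effects of PVT1 loss and effects of that pool on other transcripts cannot be told apart. None of the sources says whether the libraries of a group came from separate cultures, and p-values then measure only the spread between these libraries, which may be technical.

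Mitophagy is the removal of mitochondria by autophagy. In the receptor-mediated route, proteins anchored in the outer mitochondrial membrane, such as BNIP3, BNIP3L (also called NIX), FUNDC1, BCL2L13 and FKBP8, bind the ATG8 proteins of the growing autophagosome directly. In the PINK1 and ubiquitin route, the kinase PINK1 builds up on damaged mitochondria and drives their coating with ubiquitin, which cargo adaptors such as optineurin and p62 recognise, while the prohibitin PHB2 binds LC3 once the outer membrane has ruptured. BNIP3 and BNIP3L are well-known target genes of the hypoxia-inducible factors, which bind the core letters ACGTG or GCGTG of hypoxia response elements.

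The promoter of BNIP3 is shown because it held more copies of these letters than the promoters of the other members that could be read, and that of FUNDC1 because it held none. RefSeq promoter windows ran from 250 bases before to 50 after an annotated start on GRCh38.p14. They were matched by symbol for 4 of the 7 members, with 7 windows in all, some of which overlap within a gene. BNIP3L, PINK1 and FKBP8 had no matched window, so that their promoters were not read. Both windows lie on the minus strand, BNIP3 at chr10:131981874-131982173 and FUNDC1 at chrX:44542810-44543109, and both are printed 5′ to 3′ on that strand with matches to ACGTG or GCGTG on either strand in capitals.
BNIP3: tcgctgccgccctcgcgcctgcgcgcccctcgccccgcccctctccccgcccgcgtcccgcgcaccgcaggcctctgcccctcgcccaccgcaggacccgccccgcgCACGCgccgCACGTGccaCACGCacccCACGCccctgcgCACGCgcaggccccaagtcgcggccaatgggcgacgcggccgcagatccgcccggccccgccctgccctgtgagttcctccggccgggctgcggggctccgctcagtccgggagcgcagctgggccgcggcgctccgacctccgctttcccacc
FUNDC1: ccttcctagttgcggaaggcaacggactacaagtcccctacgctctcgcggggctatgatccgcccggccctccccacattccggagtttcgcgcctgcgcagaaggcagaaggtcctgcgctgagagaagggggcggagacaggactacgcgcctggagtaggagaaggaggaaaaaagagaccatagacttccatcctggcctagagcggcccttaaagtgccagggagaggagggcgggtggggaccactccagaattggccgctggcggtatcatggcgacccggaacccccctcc
BNIP3 held 6 matches, whose first letters lay 143, 134, 133, 125, 116 and 104 bases before the start. The matches at 134 and 133 are the overlapping strands of a palindrome, CACGTG. The BNIP3 window was 80.7% G and C and that of FUNDC1 63%. Of 35116 RefSeq promoters of this length, 17012 (48.4%) held at least 1 match and 324 (0.923%) held 6 or more. These promoters were not matched to the members' windows for G and C content. A single match stood in 1 of the 3 BCL2L13 windows, and none in the other 2 nor in both PHB2 windows. The palindrome CACGTG stood in 7.26% of promoters. A forkhead factor motif, GTAAACA, stood in 3.42% of promoters and in none of the members' windows. A match is a run of letters and does not show that a factor bound there.

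The libraries held 28383171 to 35059576 counts each, and replicates differed by more than counting error. The chi-square statistic over its degrees of freedom was 1.75 to 5.67 between siControl libraries and 8.62 to 45.3 between siPVT1 libraries. Of the 59653 rows, 19008 passed the filter of 5 normalized counts in at least 3 libraries and were tested. PVT1, the targeted RNA, stood at 3298, 4090.5 and 3377 normalized counts in the siControl libraries and at 2349.7, 2111 and 2062 in the siPVT1 libraries, a log2 fold change of −0.72 (SE 0.0967, adjusted p = 0.000342 in the quasi-likelihood test of edgeR, Benjamini-Hochberg method). The SK-OV3 markers KRT8, KRT18, PAX8 and ERBB2 had at least 805 counts in every library, KRT19 240 to 1537, EPCAM 44 to 126 and MUC16 19 to 677. These markers also differed between the groups, with 4 of the 7 higher in siPVT1 and 1 lower. Their summed level was 20238 to 22587 normalized counts in siControl and 27962 to 31277 in siPVT1. Of 7 markers of leukocytes, endothelium and fibroblasts, PTPRC, CD3E and DCN had at most 2 counts and CD68 had 542 to 800. The endothelial markers PECAM1 (36 to 299 counts) and VWF (17 to 78) and the fibroblast marker COL1A1 (105 to 531) lay higher in every siPVT1 library. The summed level of these 7 markers of other cell types was 723 to 782 normalized counts in siControl and 1427 to 1819 in siPVT1. The part of these markers in the values that follow was not tested. In these bulk libraries, fewer cells of a kind and less RNA per cell cannot be told apart.

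In the siControl libraries, PHB2 was the most abundant member and PINK1 the least. Levels of different genes were compared per length only, as counts per kilobase of the gene's median GENCODE transcript, scaled to the same sum over all genes with a length in each library. PHB2 stood at 220.5 ± 5.93 (SD, n = 3), BNIP3L at 96.6 ± 3.87, FKBP8 at 59.6 ± 3.06 and BNIP3 at 42.9 ± 0.636. BCL2L13 followed at 19.7 ± 0.145, FUNDC1 at 13.6 ± 0.727 and PINK1 at 9.71 ± 0.198, and the ranges of neighbours in this order did not overlap. The transcript in use was not measured, and with the longest transcript as the length FKBP8 (99.5) stood above BNIP3L (72.2), with the other 5 members at the same ranks. In the siPVT1 libraries the per-length levels of BNIP3L (423 ± 53.2) and BNIP3 (336 ± 24.7) stood above that of PHB2 (159.8 ± 1.14), and with the longest transcript BNIP3 stood first at 390.

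**Figure D1:**
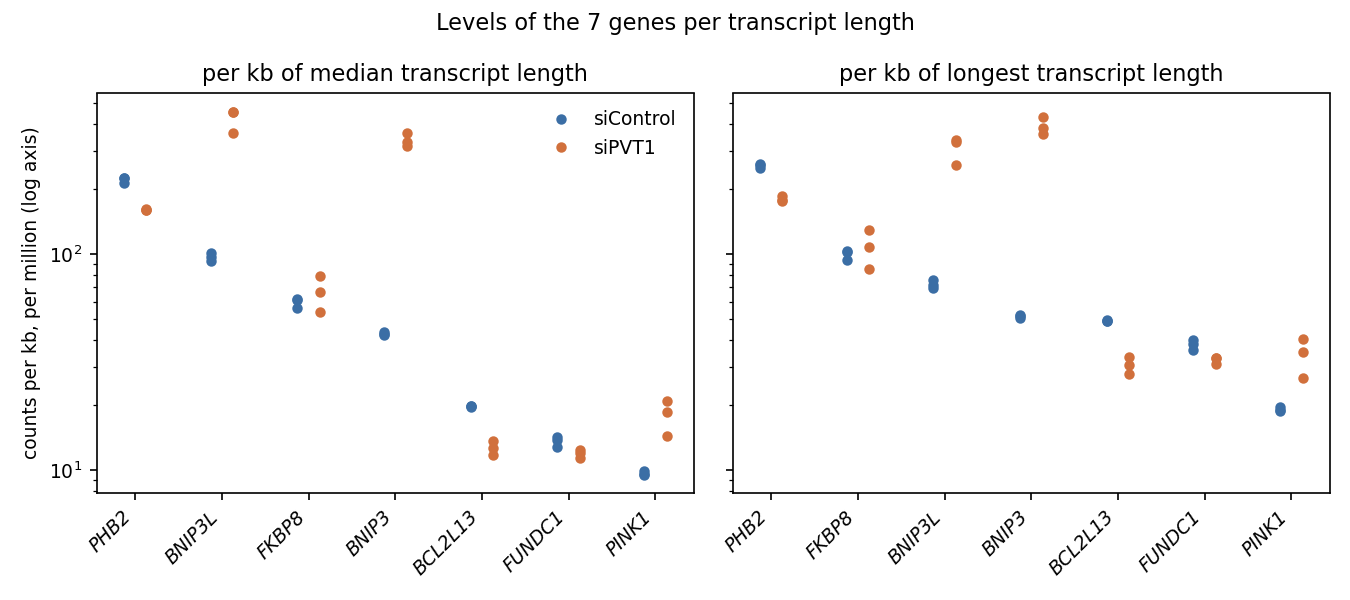
Per-length level (TPM-like units, counts per kilobase scaled to the same sum in each library, log axis) of the 7 members, with the median (left) or the longest (right) GENCODE transcript as the length; points are the 3 libraries of each group. On the left, BNIP3 and BNIP3L lie at rank 4 and rank 2 in siControl and move to the top of the scale in siPVT1, while FUNDC1 stays between 11.4 and 14.3.

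BNIP3 encodes an outer membrane protein that interacts with BCL2 and binds LC3. The gene (ENSG00000176171) lies on the minus strand at chr10:131967684-131981967 on GRCh38 and has 4 annotated transcripts in GENCODE v44. Normalized counts of BNIP3 were 1563, 1448 and 1502 in siControl and 14216, 12689.7 and 12487 in siPVT1. All siPVT1 libraries lay far above all siControl libraries, and replicate 1 was the highest of its group. The means were 1504 ± 57.5 and 13131 ± 945 (SD, n = 3 per group), which gives a log2 fold change of 3.13 (SE 0.0745), or 8.73-fold, which ranked 178 from the highest of the 19008 genes tested.

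Part of the BNIP3 transcript sequence is shared with BNIP3P1, a transcribed processed pseudogene at chr14:28264390-28265974, so that reads from these stretches could be assigned to either gene. Of 4121 distinct stretches of 75 bases, the length of the reads, in the BNIP3 transcripts, 304 (7.38%) occurred in BNIP3P1 on the same strand. BNIP3P1 stood at 79.0, 51.5 and 85.0 normalized counts in siControl and at 778, 612 and 608 in siPVT1, a log2 fold change of 3.20 (SE 0.187). This value is given without a test, as for BNIP3, since its counts may be reads of BNIP3. The counts of BNIP3 per count of BNIP3P1 were 19.8, 28.1 and 17.7 in siControl and 18.3, 20.7 and 20.5 in siPVT1. All siPVT1 values of the pseudogene exceeded all siControl values. The pseudogene made up 4.56% of the summed counts of both in siControl and 4.83% in siPVT1. The sum changed by 3.13 (SE 0.0775) on the log2 scale, the value of BNIP3 alone, from which so small a part could hardly move it. Of 39 BNIP3 pseudogene symbols in the table, 34 had no count in any library and 2 were tested. The other tested pseudogene, BNIP3P4, had a log2 fold change of −0.10 (SE 0.250, edgeR adjusted p = 0.743), with overlapping groups.

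BNIP3L encodes the closest relative of BNIP3, known for clearing mitochondria from maturing red blood cells. The gene (ENSG00000104765) lies on the plus strand at chr8:26383054-26505636 and has 7 annotated transcripts. Its normalized counts were 2429, 2205 and 2509 in siControl and 12484, 12299.7 and 10037 in siPVT1. The groups did not overlap, and siPVT1 replicate 3 was the lowest of its group, as it was for BNIP3, PINK1 and FKBP8. The means were 2381 ± 157 and 11607 ± 1363 (SD, n = 3 per group), which gives a log2 fold change of 2.28 (SE 0.0993), or 4.87-fold, rank 465 of 19008. PNMA2, a paraneoplastic antigen gene on the opposite strand, shares 330 exonic bases with BNIP3L in the annotation and 257 of 4209 stretches of 75 bases (6.11%). PNMA2 stood at 831, 814 and 856 normalized counts in siControl and at 3966, 3780.5 and 3199 in siPVT1, a log2 fold change of 2.13 (SE 0.0900, edgeR adjusted p = 1.45e-06). The strand setting of the counting is not given in the sources used here, and without strand, reads of the shared bases cannot be assigned to either gene.

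BNIP3 and BNIP3L together took a larger share of the members' transcripts in siPVT1. Per median transcript length, their share of the sum over the 7 members was 29.9%, 30.3% and 30.2% in the siControl libraries and 74.1%, 74.5% and 72.9% in the siPVT1 libraries. With the longest transcripts, the share was 21.0%, 21.3% and 21.1% in siControl and 64.5%, 64.9% and 63.9% in siPVT1. The normalized counts of BNIP3 per count of BNIP3L were 0.643, 0.656 and 0.599 in siControl and 1.14, 1.03 and 1.24 in siPVT1, and this ratio was higher in every siPVT1 library than in any siControl library.

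**Figure D2:**
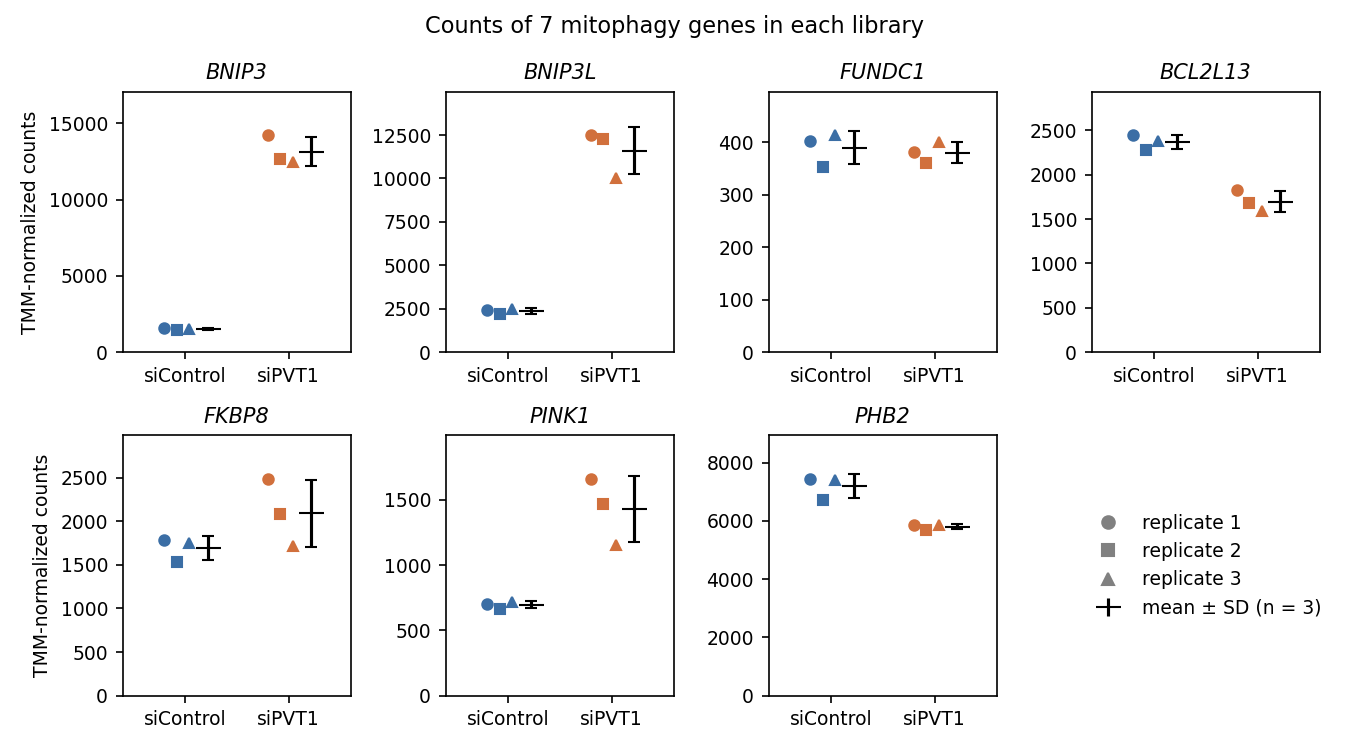
Normalized counts (linear axes from 0, 1 panel per gene) of the 7 members in each of the 6 libraries, 1 point per library, with the mean and SD of each group. The siPVT1 points of BNIP3 and BNIP3L lie at 10037 and above, those of PINK1 between 1157 and 1659, and the groups of FUNDC1 and FKBP8 overlap.

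PINK1 encodes the mitochondrial serine/threonine kinase that phosphorylates ubiquitin. The gene (ENSG00000158828) lies on the plus strand at chr1:20633458-20651511 and has 3 annotated transcripts. Its normalized counts were 699, 666 and 719.6 in siControl and 1659, 1468 and 1157 in siPVT1. The groups did not overlap, and the siPVT1 libraries spread more widely, with a coefficient of variation of 17.8% against 3.91%. The means were 695 ± 27.2 and 1428 ± 254 (SD, n = 3 per group), which gives a log2 fold change of 1.04 (SE 0.126), or 2.05-fold, and 0.90 without siPVT1 replicate 1, the highest library.

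The antisense RNA PINK1-AS (ENSG00000117242, minus strand, chr1:20642657-20652193) shares 1907 exonic bases with PINK1. Of 4828 stretches of 75 bases in the PINK1 transcripts, 1692 (35%) occurred on the opposite strand of PINK1-AS, the largest share among the members and their linked genes. PINK1-AS stood at 288, 308 and 308 normalized counts in siControl and at 169, 207 and 226 in siPVT1, a log2 fold change of −0.58 (SE 0.120, edgeR adjusted p = 0.00348). All siPVT1 libraries lay below all siControl libraries for the antisense RNA, in the direction opposite to PINK1. The counts of PINK1 per count of PINK1-AS were 2.43, 2.16 and 2.34 in siControl and 9.80, 7.11 and 5.11 in siPVT1. Since reads of the shared bases may have been counted for either gene, the counts of both were also summed, an addition made after the values were seen. The sum was 996 ± 27.8 in siControl and 1629 ± 226 in siPVT1 (SD, n = 3 per group). This gives a log2 fold change of 0.71 (SE 0.103), below 2-fold. PINK1-AS made up 30.2% of the sum in siControl and 12.3% in siPVT1. PINK1-AS also shares 427 exonic bases with DDOST, a protein-coding gene on its own strand. The part of DDOST reads in the counts of PINK1-AS, in the ratio and in the sum was not tested.

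**Figure D3:**
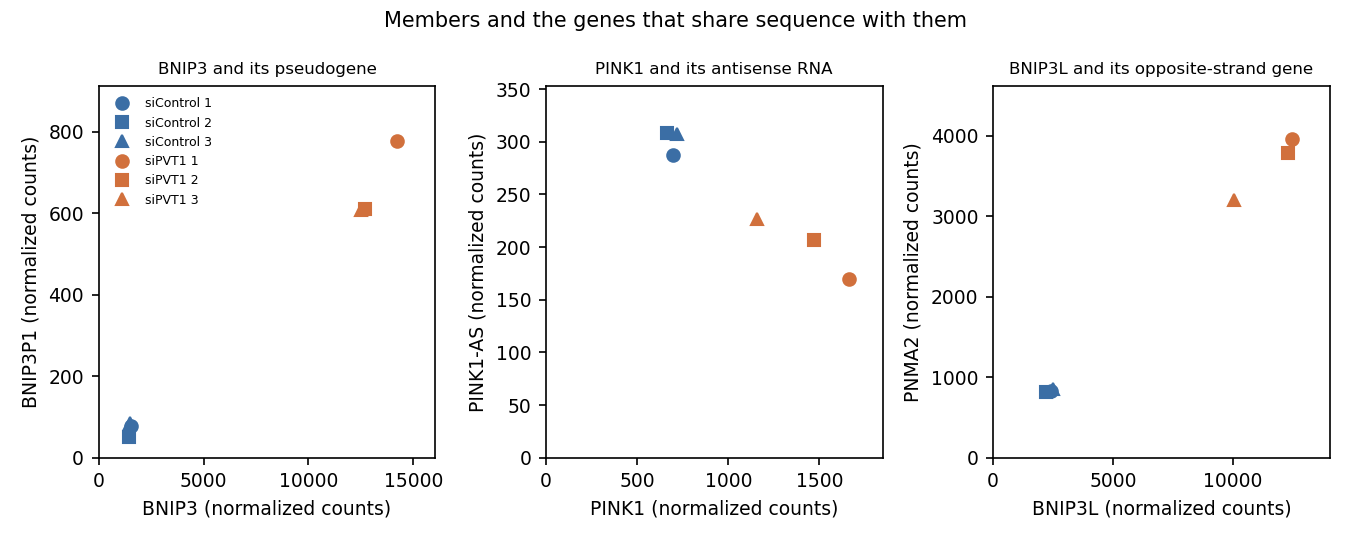
Normalized counts of BNIP3 against its pseudogene BNIP3P1, of PINK1 against its antisense RNA and of BNIP3L against PNMA2 on the opposite strand, 1 point per library with the siControl libraries in blue and the siPVT1 libraries in orange. BNIP3P1 and PNMA2 are high where their partners are high, and PINK1-AS lies between 169 and 226 in the siPVT1 libraries and between 288 and 308 in siControl.

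FUNDC1 encodes an outer membrane receptor whose binding to LC3 is set by phosphorylation. The gene (ENSG00000069509) lies on the minus strand at chrX:44523639-44542859. FUNDC1 had normalized counts of 402, 354 and 413 in siControl and 382, 359 and 399 in siPVT1. All siPVT1 values lay within the siControl range. The means were 389 ± 31.5 and 380.3 ± 20.0 (SD, n = 3 per group), which gives a log2 fold change of −0.034 (SE 0.0936), and the sign turned to 0.0047 without siControl replicate 3. None of its 75-base stretches occurred in another gene.

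FKBP8 encodes an outer membrane member of the FK506-binding protein family that recruits LC3A. The gene (ENSG00000105701) lies on the minus strand at chr19:18531751-18544077. Its normalized counts were 1790.3, 1535 and 1754 in siControl and 2487, 2078 and 1716 in siPVT1. Replicates 1 and 2 of siPVT1 lay above every siControl library and replicate 3 within their range, so that the groups overlapped. The means were 1693 ± 138 and 2094 ± 386 (SD, n = 3 per group), which gives a log2 fold change of 0.31 (SE 0.131), which was 0.15 without siPVT1 replicate 1. The FKBP8 values of siPVT1 had the largest coefficient of variation among the members, 18.4%.

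BCL2L13 encodes a BCL2-like outer membrane protein known as the mammalian counterpart of the yeast receptor Atg32. The gene (ENSG00000099968) lies on the plus strand at chr22:17628855-17730855 and has 17 annotated transcripts. Its normalized counts were 2444, 2282 and 2384 in siControl and 1823, 1680.5 and 1589 in siPVT1. Every siPVT1 library lay below every siControl library. The means were 2369.95 ± 81.6 and 1697 ± 118 (SD, n = 3 per group), which gives a log2 fold change of −0.48 (SE 0.0700), or 0.716 of the siControl level, and it was the member with the lowest fold change.

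PHB2 encodes prohibitin 2, a subunit of the prohibitin ring of the inner mitochondrial membrane. The gene (ENSG00000215021) lies on the minus strand at chr12:6965327-6970780 and has 20 annotated transcripts. PHB2 had normalized counts of 7440.2, 6715 and 7412 in siControl and 5845, 5697 and 5847 in siPVT1. The groups did not overlap, and the siPVT1 libraries lay close together, with a coefficient of variation of 1.49%. The means were 7189 ± 411 and 5797 ± 86.2 (SD, n = 3 per group), which gives a log2 fold change of −0.31 (SE 0.0607). SCARNA12, a small Cajal body RNA within the gene on the same strand, shares 196 of 5505 stretches of 75 bases (3.56%) and had 13 to 37 counts per library.

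All 7 members passed the filter on low counts. The thresholds used for calling were an adjusted p under 0.05 and a change of at least 2-fold. Past both lay 11.8% of all tested genes upward and 9.64% downward. The members were given no call. BNIP3, BNIP3L and PINK1 changed by at least 2-fold, all upward. Every siPVT1 library was above every siControl library for 3 members and below for 2 (BCL2L13 and PHB2), where 33.2% of all tested genes were above and 32.3% below. Since these values were known when the members were chosen, nothing is read from the counts. The median log2 fold change of the members was 0.31, and that of all genes tested 0.001. When libraries were scaled by their total counts, the median of all genes moved to −0.15, and each member's value moved down by about as much, BNIP3 to 2.98, BNIP3L to 2.14 and PINK1 to 0.89.

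**Figure D4:**
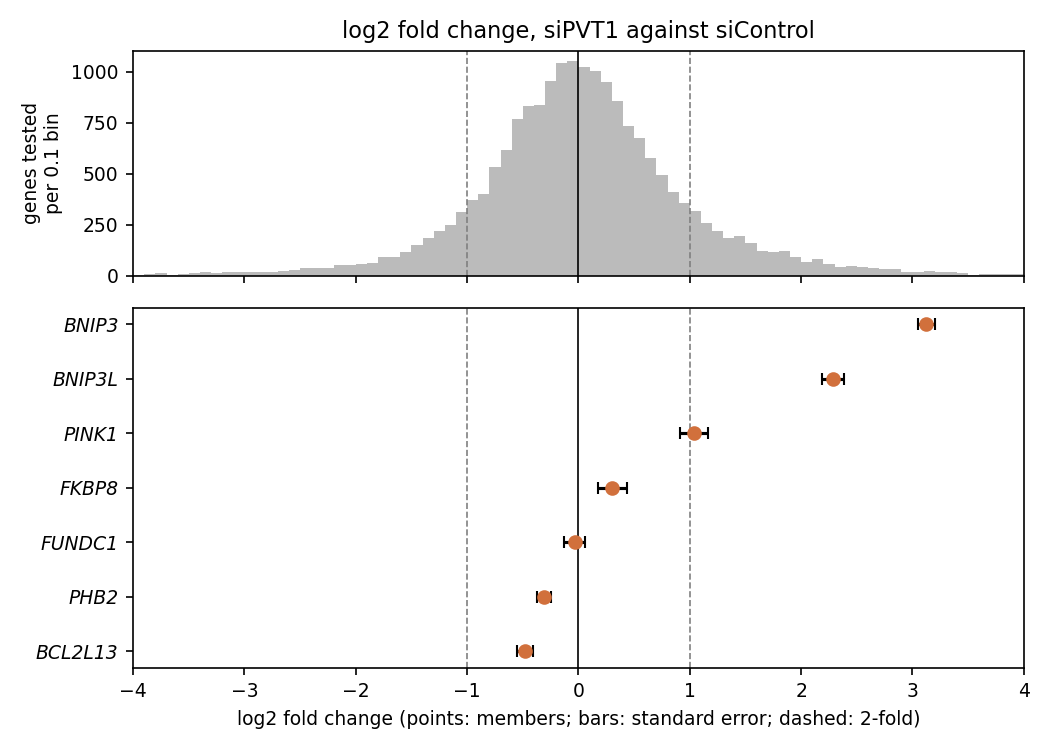
Log2 fold change, siPVT1 against siControl, of each member with its standard error, beside the distribution over all 19008 genes tested. The axis ends at 4 on each side, which leaves out 184 genes; BNIP3, BNIP3L and PINK1 lie to the right of the 2-fold line and the other 4 members between −0.48 and 0.31.

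The rest of the pathway was described with 97 genes in 9 lists by role, of which 95 were tested; a few genes stand in more than 1 list and count once in these totals. At an adjusted p under 0.05, 20 rose and 46 fell (21.1% and 48.4% of the 95), where 29.5% of all tested genes rose and 28.4% fell, and 29 did not pass. Past both thresholds lay 5 upward and 7 downward (5.26% and 7.37%), beside the 11.8% and 9.64% of all genes. The lists were chosen with earlier results of these data known. Their counts and shares are therefore a description from which nothing is read, and the adjusted p-values of the genes named below carry the same limit. The median log2 fold change of the 95 was −0.18. With total-count scaling, 16 rose and 59 fell, while 23.6% of all genes rose and 36.2% fell, and 4 pathway genes lay past both thresholds upward and 10 downward.

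Among 11 other receptors and relatives of the members, 1 rose and 3 fell, with a median log2 fold change of −0.17. NIPSNAP1, a matrix protein that marks damaged mitochondria for adaptors, rose from 811, 779.9 and 889.5 normalized counts to 1928, 1769 and 1586 (log2 fold change 1.09, SE 0.0911, edgeR adjusted p = 2.85e-05), and stood at 0.94, under 2-fold, with total-count scaling. SAMM50, a subunit of the outer membrane assembly machinery, had the lowest value of the list, −0.94 (SE 0.0959, edgeR adjusted p = 7.74e-05), with no overlap between groups. PHB, the other prohibitin, stood at −0.20 (edgeR adjusted p = 0.0716), and FUNDC2, the relative of FUNDC1, had overlapping groups with a log2 fold change of −0.17.

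Of 23 genes of the PINK1 and ubiquitin route, 4 rose and 13 fell, with a median of −0.18. TOMM40, the channel of the outer membrane translocase on which PINK1 gathers, fell from 3735, 3372 and 3712 normalized counts to 1013, 1209.5 and 1983 (log2 fold change −1.36, SE 0.217, edgeR adjusted p = 0.000882). Replicate 3 was the highest siPVT1 library and still below every siControl library. TOMM70, a receptor of the same translocase, fell from 4875, 4518 and 4733 to 2206, 2332 and 2492 (log2 fold change −1.01, SE 0.0667, edgeR adjusted p = 9.38e-06). Translocase genes in the list did not all fall. TOMM7 (log2 fold change 0.46, edgeR adjusted p = 0.0104) and TOMM20 (0.43, edgeR adjusted p = 0.00027) rose, with no overlap between groups. TOMM22 fell (−0.44, edgeR adjusted p = 0.00425).

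Of 7 genes for cargo adaptors and the kinase TBK1, 2 rose and 3 fell. SQSTM1, which encodes p62, fell from 50513, 45033 and 50288 normalized counts to 19990.4, 17921 and 17664 (log2 fold change −1.39, SE 0.0753, edgeR adjusted p = 3.74e-06). OPTN, which encodes optineurin, had the highest value of the list, 0.94 (SE 0.108, edgeR adjusted p = 0.00015), under the 2-fold threshold. The list's median was −0.11.

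The ATG8 family, to which the receptors bind, had 5 of 7 genes tested, and MAP1LC3A and MAP1LC3C had at most 2 and 1 counts. Of the 5, 3 rose and 1 fell, with a median of 0.48. GABARAPL1 rose from 1226, 1171 and 1277 normalized counts to 3321, 2992 and 2642 (log2 fold change 1.28, SE 0.0910, edgeR adjusted p = 1.26e-05). GABARAP (0.82) and GABARAPL2 (0.48) also rose, and MAP1LC3B, which encodes LC3B, fell by 0.25 on the log2 scale (SE 0.0646, edgeR adjusted p = 0.00977). MAP1LC3B2 is a near-identical copy of MAP1LC3B, so that the split of reads between them is uncertain.

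Of 12 autophagy initiation genes, 4 rose and 5 fell, with a median of −0.17. WIPI1, which binds the lipid PI3P on forming autophagosomes, rose from 594, 557 and 509 normalized counts to 2555, 2568 and 2179.9 (log2 fold change 2.14, SE 0.0937, edgeR adjusted p = 1.64e-06). ATG9A, a membrane-spanning lipid scramblase, fell from 1697, 1722 and 1749.5 to 871, 764 and 713 (log2 fold change −1.14, SE 0.0834, edgeR adjusted p = 1.48e-05). Both had groups that did not overlap.

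Of 15 regulators of the receptor proteins, 0 rose and 8 fell, with a median of −0.22. MUL1, a mitochondrial ubiquitin ligase, fell from 767, 749.6 and 753 normalized counts to 328.5, 323 and 303 (log2 fold change −1.25, SE 0.0749, edgeR adjusted p = 5.84e-06). FBXL4, a subunit of the ubiquitin ligase that keeps BNIP3 and BNIP3L protein low, fell by 0.27 on the log2 scale (edgeR adjusted p = 0.0327), and PPTC7, its partner phosphatase, stood at 0.0068 (edgeR adjusted p = 0.934). CSNK2B, a casein kinase 2 subunit, had the highest value, 0.038 (edgeR adjusted p = 0.653), and its sign turned with total-count scaling, to −0.11. Of 9 fission and fusion genes, 2 rose and 7 fell, with a median of −0.26, from MFN2, an outer membrane fusion protein, at −0.82 (SE 0.0944, edgeR adjusted p = 0.000151) to MTFP1, an inner membrane fission protein, at 0.88 (SE 0.0913, edgeR adjusted p = 8.61e-05).

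Of 8 transcription factors known to act on mitophagy genes, 4 rose and 2 fell, with a median of 0.23. FOXO1, a forkhead factor, rose from 632, 622 and 666 normalized counts to 1795, 1669.5 and 1299.5 (log2 fold change 1.31, SE 0.119, edgeR adjusted p = 4.42e-05). TFEB, a regulator of lysosome and autophagy genes, rose from 22.9, 30.3 and 25.9 to 83.5, 52.4 and 55.4 (log2 fold change 1.27, SE 0.251, edgeR adjusted p = 0.00277), and its relative TFE3 fell by 0.54 on the log2 scale (edgeR adjusted p = 0.000218). Of the hypoxia-inducible factor subunits, HIF1A stood at 0.26, ARNT at 0.66 and EPAS1 at −0.35, all with an edgeR adjusted p under 0.05. These factors were measured as RNA, and their proteins were not measured here.

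Of 8 genes of mitochondrial biogenesis, 0 rose and 7 fell, with a median of −0.49. PPARGC1B, a coactivator, fell from 874, 899 and 878.5 normalized counts to 286, 399.9 and 532 (log2 fold change −1.12, SE 0.188, edgeR adjusted p = 0.00118), and TFB2M, a factor of mitochondrial transcription, fell from 750.4, 699 and 785 to 263, 359 and 438 (log2 fold change −1.07, SE 0.164, edgeR adjusted p = 0.000713). Both were lowest in siPVT1 replicate 1, the library in which BNIP3, BNIP3L, FKBP8 and PINK1 were highest. GABPA, the remaining gene, stood at 0.15 (SE 0.0644, edgeR adjusted p = 0.0788), and at −0.00083 with total-count scaling. Without siPVT1 replicate 1, the number of pathway genes past both thresholds downward went from 7 to 4, with TFB2M at −0.91, PPARGC1B at −0.93 and TOMM70 at −0.98.

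**Figure D5:**
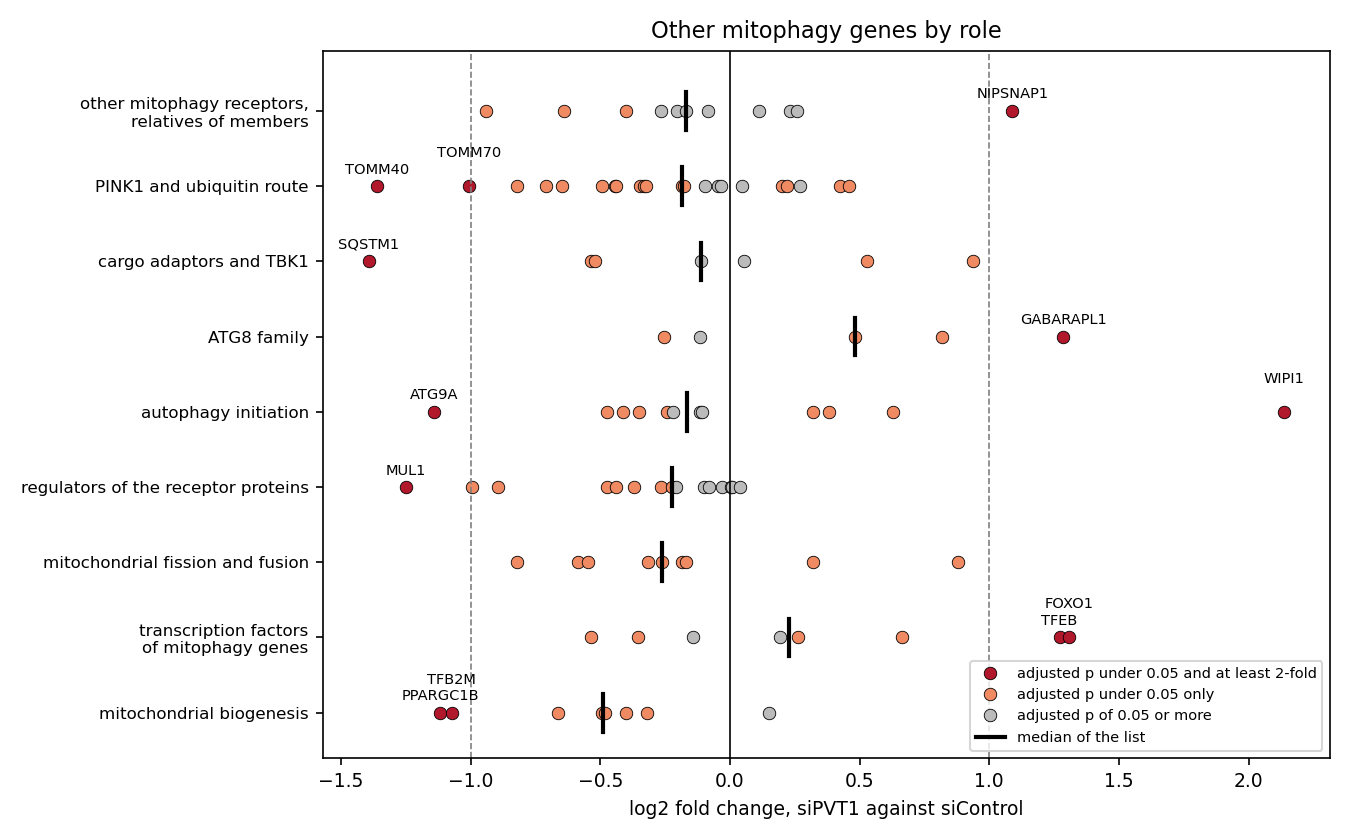
Log2 fold change, siPVT1 against siControl, of the tested genes in the 9 lists by role, with points coloured by the thresholds passed and a bar at each list's median. The genes past both thresholds run from SQSTM1 at −1.39 to WIPI1 at 2.14, and all 15 receptor regulators lie at or below 0.038.

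The genes whose pattern over the 6 libraries was most like that of BNIP3 were sought among 12038 genes with a mean of at least 100 normalized counts, by the Euclidean distance of log2 library-scaled counts after each gene's siControl mean was subtracted. The nearest were NPR1, a natriuretic peptide receptor, at a distance of 0.229, GPRC5B at 0.319 and ASAP3 at 0.332. Their log2 fold changes were 3.29, 3.27 and 3.02. Their means were 26.3, 43.9 and 50.2 normalized counts in siControl and 259, 425 and 409 in siPVT1. All of them thus reached the minimum of 100 only through the siPVT1 libraries. In all, 67 genes lay within a distance of 1, and BNIP3L ranked 132 at 1.48. Nearest to BNIP3L were P4HA1, a collagen prolyl hydroxylase subunit, at 0.157, TNNT1, a troponin, at 0.161 and BHLHE40, a transcriptional repressor, at 0.167, with log2 fold changes of 2.25, 2.32 and 2.27. These points share the libraries and the contrast. Across the 6 libraries, 969 genes had a Pearson correlation over 0.99 with BNIP3 and 1038 with BNIP3L.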

How the data were processed

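Messenger RNA libraries of SK-OV3 cells (KAPA mRNA HyperPrep kit, single-end reads of 75 bases) were aligned to the GENCODE v35 transcriptome and quantified, and the authors deposited estimated counts per gene, not normalized, for 6 libraries. The submitters' processing notes name bcl2fastq 2.20.0, STAR 2.7.3a, Salmon 0.14.1, DESeq2 1.28.1 and GRCh38.p13. The strand setting of the counting is not given in the sources used here. How near-identical sequences share estimated counts depends on the quantifier.

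Counts were rounded and scaled by TMM, and every gene reaching 5 normalized counts in 3 or more libraries was fitted with edgeR 4.0.16 (quasi-likelihood, R 4.3.3, group as the only term), with Benjamini-Hochberg adjustment over all 19008 genes. Genes were called at an adjusted p under 0.05 and at least 2-fold. The siPVT1 against siControl values of the members and of BNIP3P1 were described without a test. Each standard error was derived from the fold change and the square root of its F statistic. Normalized counts are counts divided by the library's effective size and multiplied by the mean effective size. The fit was checked on simulated counts with far fewer changed genes than were called here, equally many up and down. That check therefore does not cover the scaling between libraries. Coordinates and transcript lengths are from GENCODE v44 on GRCh38, with a length for 37819 of 59653 symbols, and promoters from RefSeq on GRCh38.p14.

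The members and the gene lists were chosen with earlier results of these data known. Named were all members, the genes that overlap them or share their sequence, and DDOST, which overlaps PINK1-AS. Also named were the pathway genes past both thresholds and the highest and lowest gene of each list. The 3 genes nearest in pattern to BNIP3 and to BNIP3L were named as well. PHB, FUNDC2, TOMM7, TOMM20, TOMM22, GABARAP, GABARAPL2, FBXL4, PPTC7, HIF1A, ARNT and EPAS1 were added after their values were seen. A gene of the PINK1 and ubiquitin route list, included in that list's counts and median, and a cell line marker are not reported here. Alternatives were DESeq2 1.42.0, other scalings and filters, a replicate block, a test against a 2-fold change, the adjusted p alone and leaving out each library. Libraries with the same replicate number in the 2 groups shared no deviation from their group means (correlations −0.041, 0.038 and 0.0037). This cannot show whether they were prepared as pairs.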

Additional observations from a re-analysis of the deposited data

How the results depend on the processing

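Of the 4081 genes called (2248 higher, 1833 lower), 1976 were called in a test against a 2-fold change and 11007 by the adjusted p alone, and leaving out 1 library gave 3507 to 4239. The 12 pathway genes past both thresholds (5 higher, 7 lower) became 5 (3 higher, 2 lower) in the test against a 2-fold change and 66 (20 higher, 46 lower) by the adjusted p alone, and without 1 library 9 to 15, with 5 to 6 higher and 4 to 9 lower. Total-count scaling moved the share of called genes that were higher from 55.1% to 43.8% and the members' log2 fold changes to 2.98 for BNIP3, 2.14 for BNIP3L, −0.18 for FUNDC1, −0.63 for BCL2L13 and −0.46 for PHB2. It reversed CSNK2B (−0.11) and GABPA (−0.00083), neither of which had passed the test, and CSNK2B ran from −0.025 (without siPVT1 replicate 3) to 0.054 when 1 library was left out. Without 1 library, the log2 fold changes ran from 3.05 to 3.15 for BNIP3, 2.22 to 2.36 for BNIP3L, 0.90 to 1.15 for PINK1, 0.15 to 0.41 for FKBP8, −0.097 to 0.0047 for FUNDC1, −0.36 to −0.29 for PHB2 and −0.55 to −0.45 for BCL2L13. Adding the counts of PINK1-AS, chosen after seeing the data, gave 0.71 for PINK1. By Pearson correlation, 0 of the 3 genes nearest to BNIP3 and 0 of the 3 nearest to BNIP3L were shared. With the longest transcript, 5 of the 7 members held their rank in siControl. The letters ACGTG alone stood in 21.4% of promoters. A replicate block gave 3924 called genes, 13 of them in the pathway lists, although whether the replicate numbers pair the libraries is not known. DESeq2 called 3777 and 13. The study itself, with DESeq2 and the same thresholds on adjusted p and fold change, reported far fewer differentially expressed genes. The cause of these movements and of the difference from the study was not tested.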
